A study of Homo sapiens with 6 samples.

Results

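BCR-ABL1 is the fusion kinase of chronic myeloid leukemia, and its proximal adaptors are the proteins that bind it and pass its signal on. The group comprised 10 genes chosen by name: ABL1, BCR, CRK, CRKL, GRB2, GAB2, SOS1, SHC1, CBL and PTPN11. Every probe set whose platform annotation gave 1 gene symbol from this group was taken, which yielded 28 of 54613 probe sets and 9 of 19775 genes. No probe set was annotated to CRK by that rule, so CRK was not analysed here.

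RNA came from K562, a human erythroleukemia line derived from chronic myeloid leukemia, in which ERG expression is switched on by doxycycline (DOX) through the tetracycline-responsive pTRE promoter. The ERG-induced group held 3 pTRE-ERG clones, named CL4, CL9 and CL46, grown with 1 µg/ml DOX for 8 days, and the non-induced group held those clones without DOX, 1 Affymetrix U133 Plus 2.0 array each. Both groups carry the transgene and the endogenous BCR-ABL1 fusion, and DOX was given to the induced cultures only, so effects of DOX and of ERG cannot be told apart. ERG itself, over its 4 probe sets, gave a log2 difference of -0.76, labelled ERG-induced against labelled non-induced (SE 0.63, adjusted p = 0.671 in limma). Averaged over the probe sets, the clones gave -1.35, -0.80 and -0.14 (CL4, CL9 and CL46), all below 0. The single ERG probe sets disagreed, with log2 differences of -1.93, -1.35, -0.50 and 0.72, and each overlapped between the groups. Only the probe set at -1.93 was below 0 in every clone, and its ratio was 15.4 in CL4 labelled non-induced. The probe set at 0.72 gave 0.82, -2.73 and 4.06 in CL4, CL9 and CL46. Whether those probe sets read the introduced ERG is unknown, so ERG could not serve as a check of the labels, by which the arrays are called.

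The deposited values are linear ratios in which the authors divided each probe set by its median over the 6 arrays. A ratio of 1 thus means the middle of the arrays for that probe set, levels of different genes cannot be compared, and neither signal over background nor the erythroid identity of the line can be read from the values. Log2 ratios were averaged over a gene's probe sets. Groups were compared with limma across all genes or all probe sets. A gene or probe set was called at a fold of 2 or more with an unadjusted p under 0.05, the thresholds of the study. Each log2 difference, of 3 arrays against 3, has its SE and, in brackets, its 95% interval. Precision is limited by the number of arrays. In bulk RNA, fewer cells with a transcript and less of it per cell cannot be told apart.

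In the fusion, the first part of BCR is joined to most of ABL1, which leaves the ABL1 tyrosine kinase permanently active. A phosphorylated tyrosine in the BCR part binds GRB2, which brings in SOS1, the exchange factor that loads RAS with GTP, and GAB2, a docking protein for PI3-kinase and the phosphatase PTPN11 (SHP2). SHC1 offers GRB2 a second route, CRKL binds the kinase and is one of its main substrates, and CBL is both docking protein and ubiquitin ligase. ABL1 and BCR probe sets read the normal alleles, the fusion or both, depending on where they lie. Probe positions were not used here, so native and fusion transcripts were not separated.

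Of the 9 genes measured, SOS1 alone was called, and it was lower in arrays labelled ERG-induced. Of all genes, 6.32% were called lower and 3.12% higher, so 1 of 9 lower and 0 of 9 higher lie near the background. Adjusted over all genes, 0 of the 9 passed 0.05 in limma, where SOS1 was the only member with an unadjusted p under 0.05 and 12.9% of all genes had one. The 9 log2 differences ran from -1.47 for SOS1 to 0.59 for ABL1, with 6 above 0 and a median of 0.25, where all genes had -0.03. Taken by clone (CL4, CL9 and CL46), the members' medians were 0.14, 0.36 and 0.26. At the level of single probe sets, 5 of 28 were called lower and 0 higher, where 8.16% of all probe sets were lower and 2.82% higher. An unadjusted p under 0.05 was reached by 6 of the 28 and by 13.1% of all probe sets. The 5 belong to only 2 genes, 3 to SOS1 and 2 to PTPN11, and probe sets of 1 gene are not independent of each other.

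**Figure D1:**
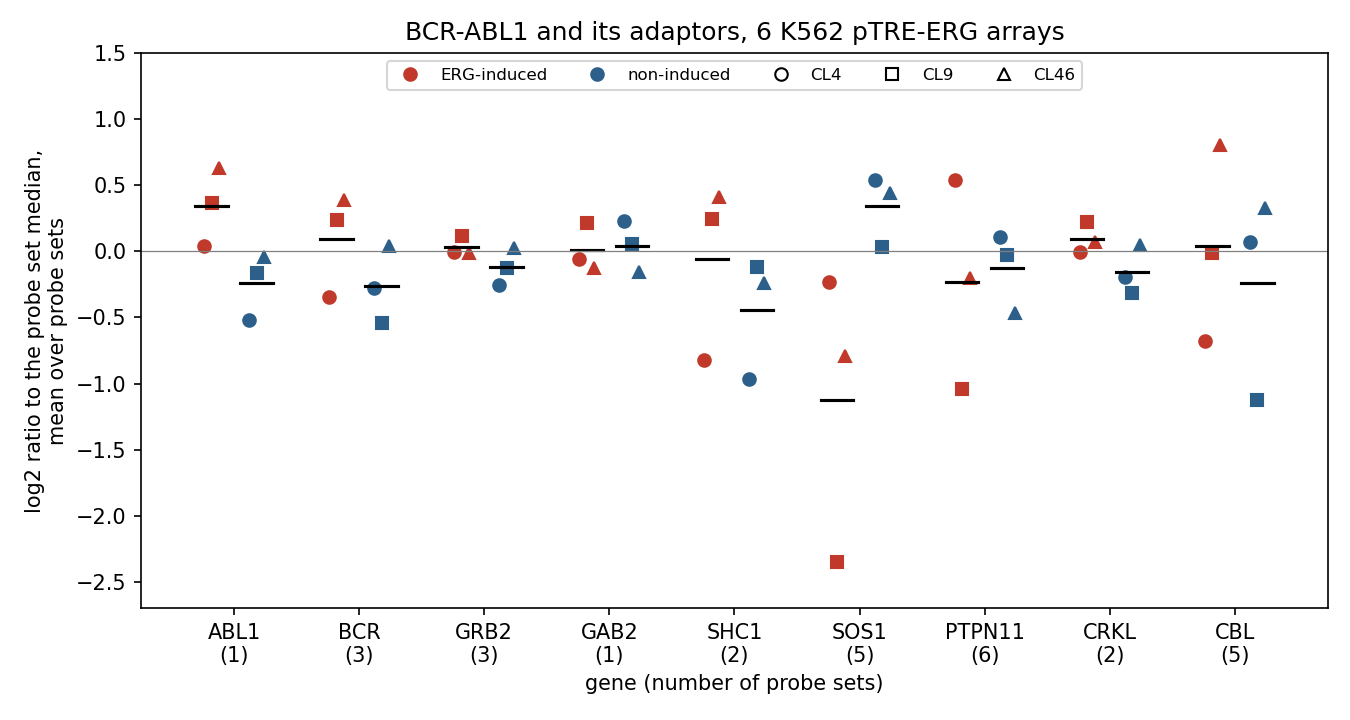
Log2 ratio of each gene (mean over its probe sets, number in brackets) on the arrays labelled ERG-induced (red, left) and non-induced (blue, right), with symbols for the clones and black lines for the group means. The groups are apart for ABL1, with induced arrays above, and for SOS1, with induced arrays below, and overlap for the other 7 genes.

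ABL1, which supplies the kinase of the fusion, is represented by 1 probe set, 202123_s_at. Its ratio was 1.03, 1.29 and 1.55 in arrays labelled ERG-induced (CL4, CL9 and CL46), against 0.699, 0.891 and 0.972 in arrays labelled non-induced. Every induced array thus lay above every non-induced array, as was the case for 7.98% of all genes. The log2 difference was 0.59 (SE 0.28, [-0.11, 1.28], unadjusted p = 0.0847, adjusted p = 0.455), which is under a fold of 2. The 3 clones gave 0.56, 0.53 and 0.67, an SD of 0.07, and 2.35% of all genes had a smaller SD between clones. The interval is from the fit without a block. With the clone as a block the SE was 0.22 and the unadjusted p 0.0634 (adjusted p = 0.403 in limma). With each array centred on its median the unadjusted p was 0.0408 at a difference of 0.69. After quantile normalization it was 0.0312 at 0.78 (adjusted p = 0.314), and both differences were still short of the fold threshold.
The genes whose values followed ABL1 most closely over the 6 arrays, by the root mean square difference after centring each gene, were KDELR1 (0.04), HIC2 (0.05) and RNF149 (0.06).

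BCR, which supplies the promoter and the oligomerization domain of the fusion, was read by 3 probe sets. Its mean ratio was 0.786, 1.18 and 1.31 in arrays labelled ERG-induced, against 0.826, 0.686 and 1.03 in arrays labelled non-induced, and the groups overlapped. The log2 difference was 0.35 (SE 0.32, [-0.43, 1.13], adjusted p = 0.703), and the clones gave -0.07, 0.78 and 0.34. Without CL9 it was 0.14. All 3 probe sets were above 0 on average, but they were not equally steady between clones.
Probe set 202315_s_at had ratios of 1.03, 1.15 and 1.13 in arrays labelled ERG-induced and of 0.844, 0.801 and 0.972 in arrays labelled non-induced, with no overlap and a log2 difference of 0.35 (SE 0.25). Probe set 226602_s_at differed by 0.29 (SE 0.33), with all 3 clones above 0 (0.39, 0.15 and 0.33). Probe set 217223_s_at gave -0.89, 1.65 and 0.48 in CL4, CL9 and CL46, a spread that put CL4 on the other side of 0. ABL1 and BCR were therefore both above 0 on average, by amounts whose intervals include 0. Closest to BCR in their values over the 6 arrays were ZNF394 (root mean square difference 0.03), ING4 (0.06) and CROCCP2 (0.07).

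SOS1, the RAS exchange factor that GRB2 carries to the kinase, had a mean ratio of 0.849, 0.196 and 0.577 in arrays labelled ERG-induced, against 1.46, 1.02 and 1.36 in arrays labelled non-induced. No induced array reached the lowest non-induced one, as was the case for 13.6% of all genes, and the CL9 array stood lowest. SOS1 fell 2.76-fold (log2 difference -1.47, SE 0.58, [-2.90, -0.03], unadjusted p = 0.0463, adjusted p = 0.381). Its clones gave -0.78, -2.38 and -1.24. The call was lost without CL4 (-1.81, unadjusted p = 0.0578), without CL9 (-1.01, 0.0560) or without CL46 (-1.58, 0.141). It was lost also with each array centred on its median (-1.36, 0.0507). Leaving out a clone leaves fewer arrays in each group. A call lost in that way, here or for the genes and probe sets below, does not alone show that the difference came from that clone. With the clone as a block, SOS1 stayed called.

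The 5 probe sets of SOS1 did not behave alike. Probe set 227426_at had ratios of 0.699, 0.329 and 0.413 in arrays labelled ERG-induced, against 1.30, 1.59 and 1.61 in arrays labelled non-induced (log2 difference -1.71, SE 0.37, adjusted p = 0.195). Probe set 230337_at had 0.688, 0.153 and 0.222 in arrays labelled ERG-induced, against 1.32, 1.31 and 1.54 in arrays labelled non-induced (log2 difference -2.28, SE 0.60, adjusted p = 0.240). Probe set 212780_at had 0.756, 0.287 and 0.481 in arrays labelled ERG-induced, against 1.77, 1.24 and 1.37 in arrays labelled non-induced (log2 difference -1.62, SE 0.44, adjusted p = 0.242). These 3 were called lower, showed no overlap between groups, and had their smallest fall in CL4 and their largest in CL9. Each of the 3 lost its call without CL46, at -1.58 for 227426_at, -2.02 for 230337_at and -1.67 for 212780_at, and 230337_at also without CL9 (-1.87). Probe set 212777_at was below 0 in all clones (-1.60, -3.45 and -0.47), but its groups overlapped (log2 difference -1.84, SE 0.99). Probe set 1557354_at went its own way, with 0.77, -0.97 and 0.55 in CL4, CL9 and CL46 (log2 difference 0.12, SE 0.89). SOS2, the paralog of SOS1 with the same exchange function, was in a list of related adaptors and differed by -0.70 (SE 0.48, adjusted p = 0.610) over 6 probe sets, a difference that was not called.

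Array-wide measures also differed on average between the groups. Control probe sets that read small ribosomal subunit RNA, a sign of RNA quality, gave log2 differences of 1.21, 0.59 and 0.82 in CL4, CL9 and CL46 (mean 0.87, SD 0.32). The exact permutation test between the groups had a two-sided p of 0.1, as low as 3 arrays against 3 allow. The median ratio per array was 0.898 to 0.998 in arrays labelled ERG-induced and 0.990 to 1.07 in arrays labelled non-induced. Of 8 megakaryocyte markers 2 were called higher and 0 lower, and their mean log2 ratio ran from -0.49 to 1.15 in arrays labelled ERG-induced and from -1.24 to -0.30 in arrays labelled non-induced. Of 7 erythroid markers 0 were higher and 1 was lower, with means of -0.43 to -0.11 in arrays labelled ERG-induced, against -0.04 to 0.19 in arrays labelled non-induced. Of 9 monocyte and granulocyte markers 0 were called, of 8 fibroblast markers 1 was higher and 1 lower, and of 6 lymphocyte markers 1 was lower. No marker was listed at 0. The part of RNA quality or lineage in the fall of SOS1, or in any other difference reported here, was not tested.

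**Figure D2:**
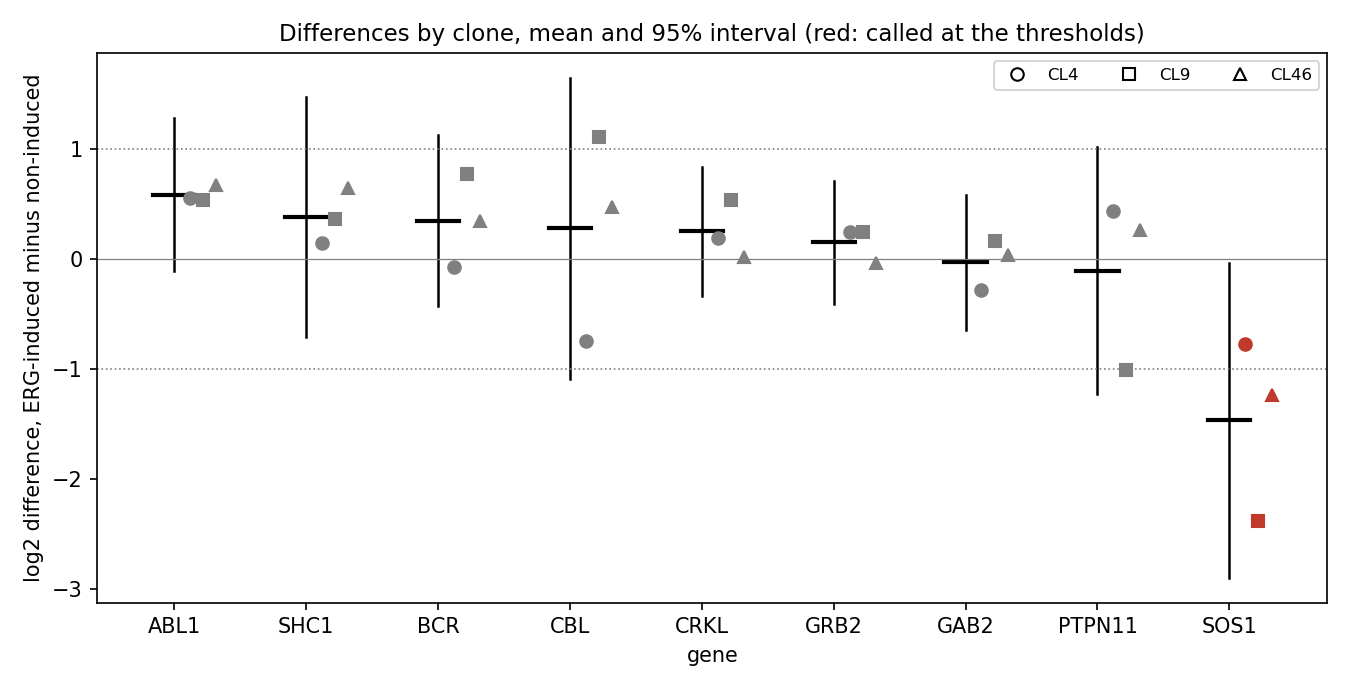
Log2 difference (labelled ERG-induced minus non-induced) for the 9 genes, ordered by mean. Symbols are the clones, black bars the mean with its 95% interval, dotted lines a fold of 2, and red marks a call. ABL1 shows the tightest clones at 0.56, 0.53 and 0.67, and only the interval of SOS1 excludes 0.

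PTPN11 encodes SHP2, a phosphatase that GAB2 recruits and that RAS signalling requires. Its mean over 6 probe sets was 1.45, 0.487 and 0.871 in arrays labelled ERG-induced, against 1.08, 0.982 and 0.725 in arrays labelled non-induced. The groups overlapped and the log2 difference was -0.10 (SE 0.46, [-1.23, 1.02], adjusted p = 0.953), a mean that lies between probe sets of opposite direction. It turned to 0.07 after quantile normalization, whereas the median over the probe sets gave -0.93 (SE 0.34, unadjusted p = 0.0350), just short of a fold of 2, so the size of the PTPN11 value depends on how its probe sets are combined.
Probe set 209896_s_at had ratios of 0.707, 0.298 and 0.677 in arrays labelled ERG-induced, against 1.29, 1.47 and 1.54 in arrays labelled non-induced, and fell 2.74-fold (log2 difference -1.45, SE 0.42, adjusted p = 0.260). Probe set 212610_at had 0.812, 0.352 and 0.673 in arrays labelled ERG-induced, against 1.19, 1.27 and 1.52 in arrays labelled non-induced, and fell 2.28-fold (log2 difference -1.19, SE 0.40, adjusted p = 0.310). Both were called lower with no overlap between the groups. Without CL46 both lost the call, at -1.59 for 209896_s_at and -1.20 for 212610_at, and 212610_at lost it also without CL9 (-0.86) and after quantile normalization (-0.99). Probe set 209895_at had 0.980, 0.547 and 0.501 in arrays labelled ERG-induced, against 1.21, 1.02 and 1.35 in arrays labelled non-induced, again apart, but it missed both thresholds (log2 difference -0.88, SE 0.36, unadjusted p = 0.0555).
The other 3 probe sets of PTPN11 each rested on a few extreme arrays. Probe set 205867_at had a ratio of 12.6 in CL4 labelled ERG-induced, while its other 5 arrays ran from 0.461 to 2.14. Probe set 1552637_at gave 0.13, -1.45 and 3.59 in CL4, CL9 and CL46. Probe set 205868_s_at gave 0.73 in CL4 and 0.17 in CL9, and in CL46 a far larger value from a ratio of 0.101 in CL46 labelled non-induced. Of all probe sets, 91.4%, 88.1% and 79.2% had a smaller SD between clones than these 3 in that order, whereas the 3 without overlap ranked at 45.8%, 41.9% and 38.0%. The split of PTPN11 into these 2 sets was made after the values were seen and was not tested.

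**Figure D3:**
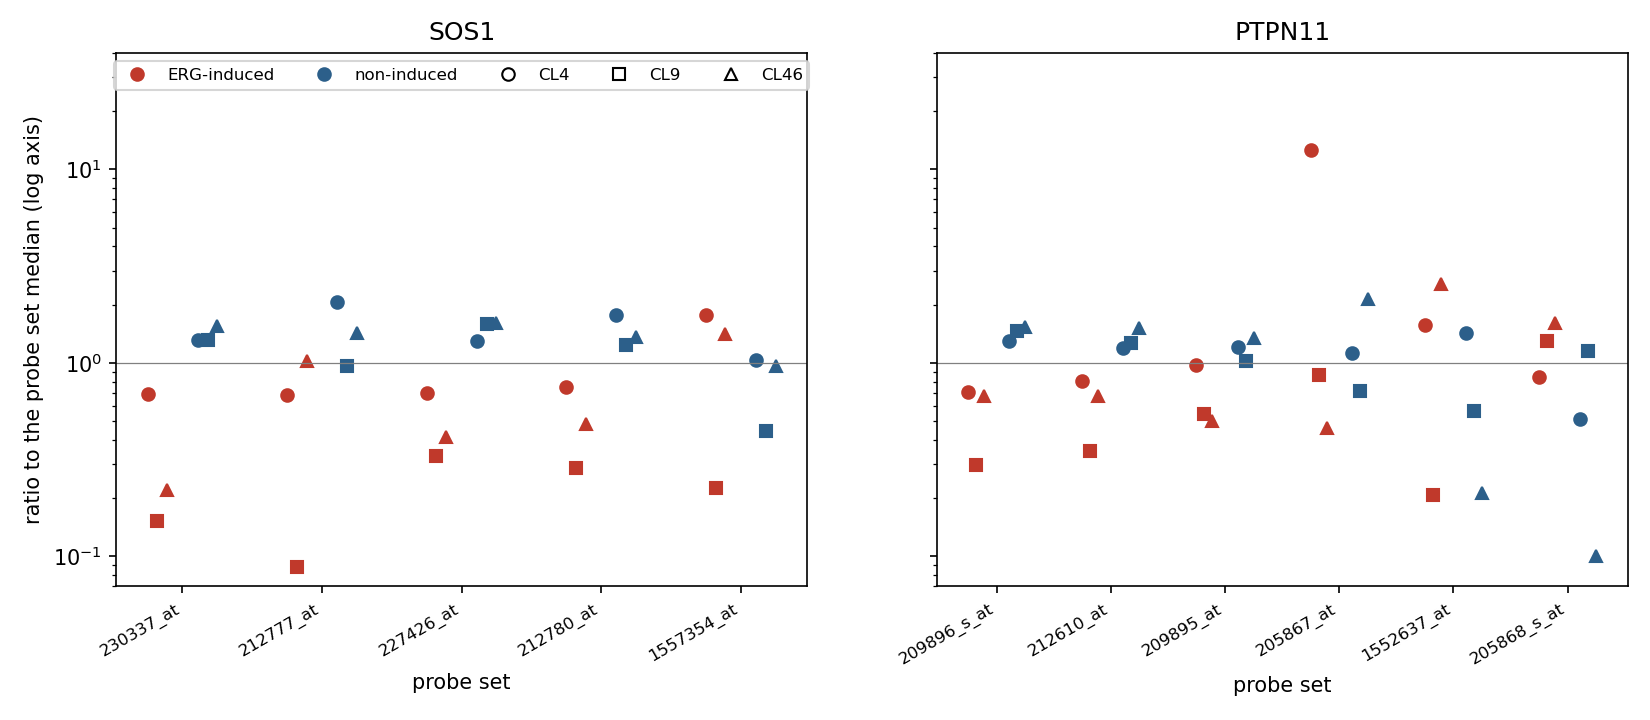
Ratio to the probe set median on a log axis for the 5 probe sets of SOS1 and the 6 of PTPN11, on arrays labelled ERG-induced (red, left) and non-induced (blue, right). The 3 leftmost PTPN11 probe sets and 3 of SOS1 have every red symbol below every blue one, and 205867_at of PTPN11 holds a lone ratio of 12.6.

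GRB2, the adaptor that links the fusion to SOS1 and GAB2, was not called. Its mean ratio was 0.994, 1.08 and 0.992 in arrays labelled ERG-induced, against 0.837, 0.916 and 1.02 in arrays labelled non-induced, a log2 difference of 0.15 (SE 0.23, [-0.41, 0.71], adjusted p = 0.835). It was 0.26 with each array centred on its median, 0.31 after quantile normalization and 0.32 with the median over probe sets. The groups overlapped in the mean, and of all genes 9.71% had a smaller SD between clones. Probe sets 223049_at and 215075_s_at had all induced arrays above all non-induced ones, at log2 differences of 0.33 (SE 0.27) and 0.31 (SE 0.29), and 228572_at gave -0.36, 0.45 and -0.64 in CL4, CL9 and CL46.
GAB2, the docking protein that joins GRB2 to PI3-kinase and PTPN11, had 1 probe set, with ratios of 0.960, 1.16 and 0.919 in arrays labelled ERG-induced, against 1.17, 1.04 and 0.895 in arrays labelled non-induced. Its log2 difference was -0.03 (SE 0.25, [-0.64, 0.59], adjusted p = 0.978), and it was 0.08 with each array centred on its median. The intervals given for GRB2 and GAB2 exclude a fold of 2 in either direction. SOS1 was thus lower while neither GRB2, which brings it in, nor GAB2 was called. The difference between SOS1 and GRB2 or GAB2 was not tested.

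SHC1, which offers GRB2 a docking site of its own, had a mean ratio of 0.565, 1.19 and 1.33 in arrays labelled ERG-induced, against 0.511, 0.921 and 0.846 in arrays labelled non-induced. Both CL4 arrays were low, so that the groups overlapped although each clone was above 0 (0.14, 0.36 and 0.65). The log2 difference was 0.39 (SE 0.44, [-0.71, 1.48], adjusted p = 0.774).
Its 2 probe sets split. Probe set 214853_s_at had ratios of 1.24, 1.17 and 1.53 in arrays labelled ERG-induced, against 0.699, 0.743 and 0.832 in arrays labelled non-induced, a log2 difference of 0.79 (SE 0.27, unadjusted p = 0.0275, adjusted p = 0.313) or a fold of 1.73. It stayed short of a fold of 2 except after quantile normalization (1.00). Probe set 201469_s_at differed by -0.01 (SE 0.78), with 0.257 and 0.374 in CL4 labelled ERG-induced and non-induced, the lowest ratios of SHC1 on any array.

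CRKL, an SH2 and SH3 adaptor whose phosphorylation is a common readout of BCR-ABL1 activity, had a mean ratio of 0.998, 1.17 and 1.05 in arrays labelled ERG-induced, against 0.873, 0.803 and 1.03 in arrays labelled non-induced. Its log2 difference was 0.25 (SE 0.24, [-0.34, 0.84], adjusted p = 0.720), and the clones gave 0.19, 0.54 and 0.02. Probe set 212180_at was above 0 in each clone (0.33, 0.24 and 0.13), and 206184_at only in CL4 and CL9 (0.06, 0.84 and -0.09). The interval of CRKL also excludes a fold of 2.
CBL, the ubiquitin ligase that turns over active kinases, was the least settled member. Its mean ratio was 0.625, 0.990 and 1.75 in arrays labelled ERG-induced, against 1.05, 0.459 and 1.26 in arrays labelled non-induced, and the clones gave -0.75, 1.11 and 0.48 (log2 difference 0.28, SE 0.56, [-1.09, 1.65], adjusted p = 0.880). Without CL9 the difference was -0.14. Its 5 probe sets ran from -0.55 (229010_at) to 1.13 (206607_at), 3 above 0 and 2 below, and all 5 overlapped between groups. The extremes were single arrays, such as 4.77 for 206607_at in CL46 labelled ERG-induced, 0.132 for 229010_at in CL4 labelled ERG-induced and 0.0956 for 243475_at in CL9 labelled non-induced.

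**Figure D4:**
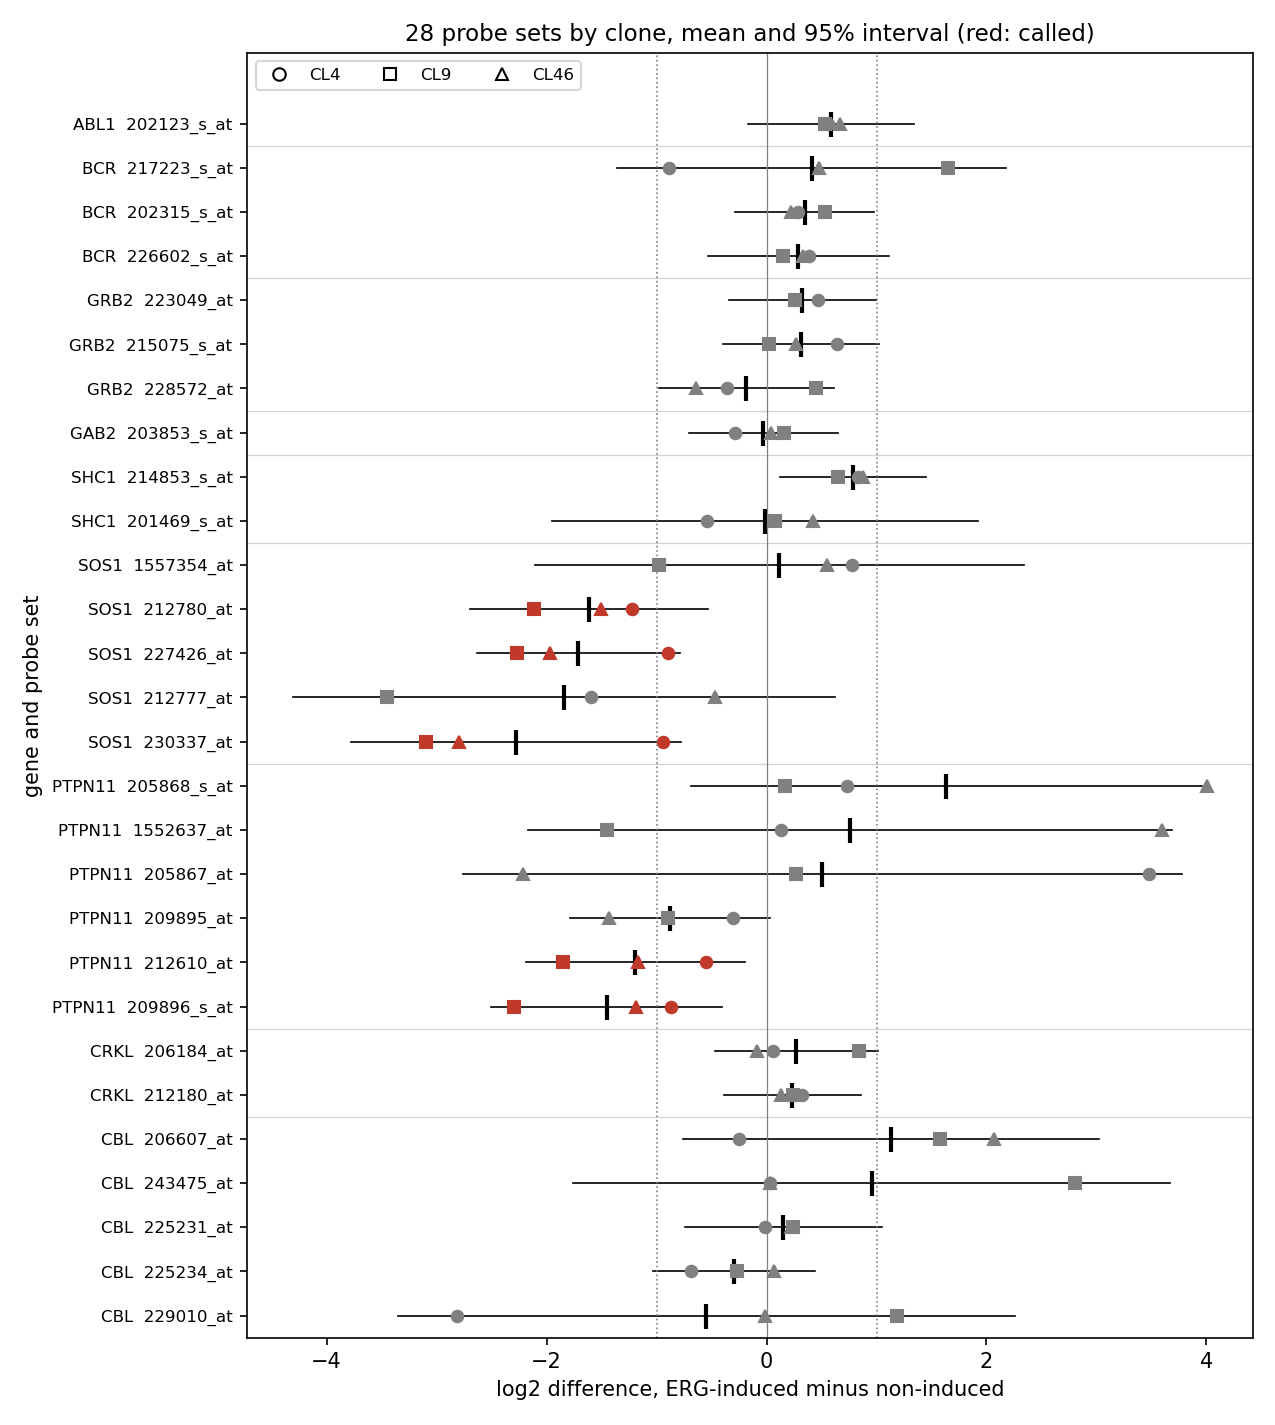
Log2 difference (labelled ERG-induced minus non-induced) for all 28 probe sets, grouped by gene. Symbols are the clones, black ticks and lines the mean with its 95% interval, dotted lines a fold of 2, and red marks a call. The 5 called probe sets belong to SOS1 and PTPN11, and the widest intervals are found in PTPN11, CBL and SOS1.

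Over the 28 probe sets, 16 differed by more than 0 and 12 by less. Induced arrays lay wholly above non-induced arrays in 6 probe sets, against 7.14% of all probe sets, and wholly below in 6, against 15.1%. The 6 above were 202123_s_at of ABL1, 202315_s_at of BCR, 212180_at of CRKL, 223049_at and 215075_s_at of GRB2, and 214853_s_at of SHC1, and each stayed under a fold of 2. The 6 below were 3 of SOS1 and 3 of PTPN11.

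ERG is an ETS factor, and ETS proteins bind DNA at a GGAA core. The upstream sequence is therefore shown for SOS1, the called member, and for both parts of the fusion. Also shown is the SHC1 start whose window, alone among those searched for the members, holds the longer ETS sequence described below. RefSeq promoters (GRCh38.p14) matched 8 of the 10 genes with 11 start sites, and the 250 bases before each start were searched on both strands. The genes without a promoter there, CBL and PTPN11, were not searched, while CRK was. The sequences read 5′ to 3′ on the strand of the gene, and capitals mark GGAA or its reverse complement TTCC.
SOS1 (chr2:39124869-39125118, minus strand): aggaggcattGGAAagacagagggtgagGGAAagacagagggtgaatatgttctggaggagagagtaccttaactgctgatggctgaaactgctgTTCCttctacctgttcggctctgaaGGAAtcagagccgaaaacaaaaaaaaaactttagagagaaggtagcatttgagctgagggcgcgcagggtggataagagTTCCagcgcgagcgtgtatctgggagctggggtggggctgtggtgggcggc
SOS1 (chr2:39121052-39121301, minus strand): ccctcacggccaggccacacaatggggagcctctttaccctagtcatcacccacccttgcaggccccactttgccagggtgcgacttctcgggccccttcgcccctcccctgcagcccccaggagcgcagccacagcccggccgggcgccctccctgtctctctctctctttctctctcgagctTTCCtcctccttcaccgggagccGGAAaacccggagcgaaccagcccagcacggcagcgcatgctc
ABL1 (chr9:130835004-130835253, plus strand): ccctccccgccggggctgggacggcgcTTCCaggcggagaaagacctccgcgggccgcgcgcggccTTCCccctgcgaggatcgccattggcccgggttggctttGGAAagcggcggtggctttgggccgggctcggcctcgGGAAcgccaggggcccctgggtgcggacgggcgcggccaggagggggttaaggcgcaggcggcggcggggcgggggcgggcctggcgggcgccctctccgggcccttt
BCR (chr22:23180259-23180508, plus strand): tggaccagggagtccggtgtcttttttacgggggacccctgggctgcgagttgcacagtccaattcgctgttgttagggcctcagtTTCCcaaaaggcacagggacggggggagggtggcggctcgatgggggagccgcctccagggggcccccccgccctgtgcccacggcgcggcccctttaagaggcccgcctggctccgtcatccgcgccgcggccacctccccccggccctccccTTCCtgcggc
SHC1 (chr1:154974377-154974626, minus strand): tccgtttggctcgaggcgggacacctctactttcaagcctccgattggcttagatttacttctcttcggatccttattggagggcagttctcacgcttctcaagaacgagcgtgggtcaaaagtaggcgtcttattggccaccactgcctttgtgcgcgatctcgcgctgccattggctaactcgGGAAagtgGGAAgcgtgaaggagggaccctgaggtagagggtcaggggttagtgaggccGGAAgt
Of the 35116 promoters of this length, 92.7% hold GGAA on either strand, with a median of 3 matches, so a core alone sets no gene apart. The upstream SOS1 start, at 39124869 to 39125118, held 5 cores and the other SOS1 start 2. ABL1 held 4, BCR 2, the SHC1 start shown 3 and the SHC1 start not shown 2. The ABL1 window lies within the gene, whose locus starts at 130713043, and no window before that position was searched. The longer ETS sequence CCGGAAGT, which contains the core and occurs in 3.42% of the promoters, was found in the SHC1 window shown and in no other window of the members. A match is a description of letters, and binding was not measured.

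The wider pathway was described with 8 lists holding 99 measured genes outside the group, of which 3 were called higher and 6 lower. These shares are again near the background of 3.12% and 6.32%. The median over the lists was 0.05. With the clone as a block 1 was higher and 5 were lower.
Of 9 measured SRC family kinases and relatives, which the fusion engages as partners, 1 was called higher and 2 lower. YES1 was lower by a log2 difference of -2.26, or 4.79-fold (SE 0.29, adjusted p = 0.166). Its clones gave -1.89, -2.78 and -2.11, and it kept its call without each clone in turn. LCK, a kinase of lymphocytes, was lower by a log2 difference of -1.36, a call lost without CL9 (-1.01) or CL46 (-1.02) and in the fit blocked on clone, where its difference is the same but the unadjusted p was 0.0785 (adjusted p = 0.420 in limma). FGR, a kinase of myeloid cells, was 7.53-fold higher on 1 probe set (log2 difference 2.91, SE 1.15), and lost the call without CL4 (2.13) or CL9 (2.65). FYN gave -0.77 (SE 0.24, adjusted p = 0.304), or -0.44 with the median over its 5 probe sets, and ABL2, the paralog of ABL1, -0.17 (SE 0.23, adjusted p = 0.810). LYN, the SRC family kinase most tied to drug resistance in this leukemia, gave 0.23 (SE 0.31), and ABL2 and LYN are named after their values were seen.

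Of 13 measured RAS and PI3-kinase relays, 0 were called higher and 2 lower. RASGRP1, a RAS exchange factor activated by diacylglycerol, was 2.54-fold lower (-1.34, SE 0.33, adjusted p = 0.235), and RASA2, a RAS GTPase-activating protein, was 2.84-fold lower (-1.51, SE 0.49, adjusted p = 0.313). Both lost the call without CL46 (-1.01 for RASGRP1, -1.61 for RASA2). RASGRP2 gave 0.86 and PIK3CD, a catalytic PI3-kinase subunit of blood cells, 0.82, and neither reached a fold of 2.
Of 13 phosphatases and inhibitors, 1 was higher and 1 lower. SPRED1, an inhibitor of RAS to ERK signalling, was 3.67-fold lower (-1.87, SE 0.27, adjusted p = 0.190). Its clones gave -1.89, -2.14 and -1.59, and it kept its call without each clone in turn. UBASH3B, a phosphatase of the STS family, was 2.21-fold higher (1.15, SE 0.34), a call lost without CL4 (0.93) or CL46 (0.91), in the fit blocked on clone, with the same difference and an unadjusted p of 0.0541 (adjusted p = 0.389), and with the median over its 5 probe sets (0.22). SOCS1 gave -1.04 (SE 0.46, adjusted p = 0.426) and PTPN6, the phosphatase SHP1, 0.62 (SE 0.31, adjusted p = 0.466).

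Among 20 other adaptors and docking proteins, 0 were called in either direction and the median was 0.06. The smallest p belonged to NCK1, an SH2 and SH3 adaptor of the actin cytoskeleton, at -0.72 (SE 0.22, adjusted p = 0.298). GRB14 gave 1.99 with an SE of 1.10, and SHC2 gave 0.49 (SE 0.30). Among 10 CRK partners, 0 were called and the median was 0.12, with WASL at -0.92 (SE 0.41), DOCK1 at 0.38, BCAR1 at 0.53 and PTK2 at -0.32.
Of 16 transcripts known to follow BCR-ABL1 signalling, 0 were higher and 1 was lower, and the median was 0.34. EGR1, an immediate early gene induced through ERK, was 4.30-fold lower (-2.10, SE 0.38, adjusted p = 0.192). Its clones gave -1.56, -2.41 and -2.34, and it kept its call without each clone in turn. MCL1, an inhibitor of apoptosis, gave -0.74 (SE 0.30) and SPRY4 -0.59 (SE 0.25), while ID1 gave 0.58 (SE 0.26). The STAT5 targets PIM1 and CISH, named after their values were seen, gave 0.48 (SE 0.25) and 0.18 (SE 0.24).

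K562 cells carry extra copies of the fused BCR-ABL1 region. Genes lying near ABL1 or BCR were listed as well, but which of them those extra copies include was not tested. Of 8 genes near ABL1, 1 was higher and 0 lower, with a median of -0.18. PRDM12, on 1 probe set, was 2.05-fold higher (log2 difference 1.04, SE 0.39), a call lost without CL4 (0.78) or CL46 (0.82) and in the fit blocked on clone, with the same difference and an unadjusted p of 0.0750 (adjusted p = 0.416). FUBP3 gave -0.83 (SE 0.51), AIF1L 0.89 (SE 0.65) and ASS1 -0.49 (SE 0.41). Of 10 genes near BCR, 0 were called and the median was 0.08, with RSPH14 at 0.99 (SE 0.33), FBXW4P1 at 0.46, TOP3B at -0.40 and PPM1F at 0.34. NUP214, a nuclear pore gene beyond ABL1 that is named after its values were seen, gave -0.13 (SE 0.22).

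**Figure D5:**
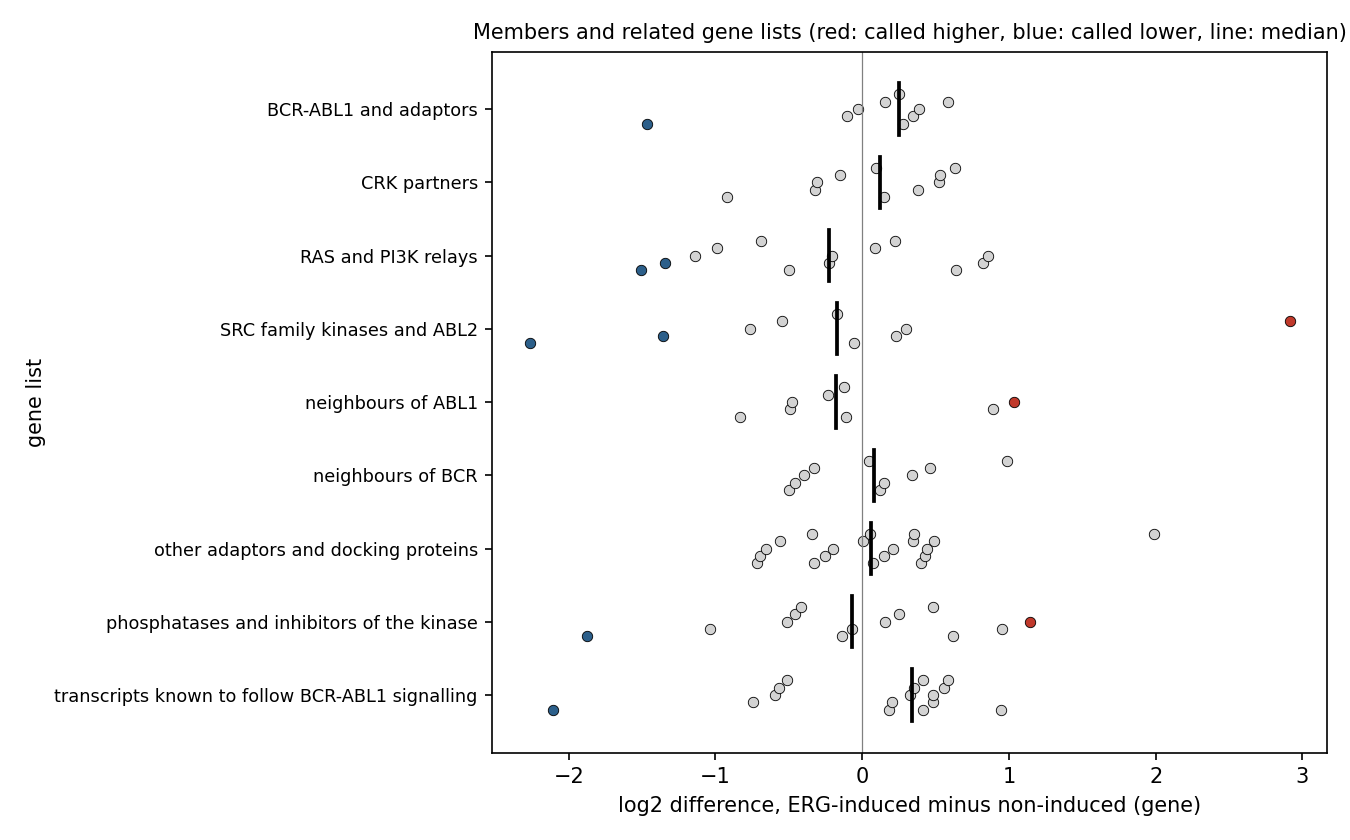
Log2 difference (labelled ERG-induced minus non-induced) of each gene for the group and for 8 lists of related genes. Red points were called higher, blue points lower, and black lines are medians. The calls are SOS1 in the group and 3 higher and 6 lower genes among the 99 others.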

How the data were processed

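The 6 arrays are 1-colour Affymetrix U133 Plus 2.0 arrays, which the authors analysed with GeneSpring. The deposited values are linear ratios, each probe set divided by its median over the 6 arrays (of 54675 probe sets, 50737 have a median of 1 within 1e-05 and 3938 a lower one). How background and array scale were treated earlier is, for these files, not given in the sources used here. After removal of 62 control probe sets, 41091 of 54613 carried 1 gene symbol, and 41037 of these were matched by gene ID to RefSeq (GRCh38.p14) for their names. Log2 ratios, with no floor or filter, were averaged per gene.

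The group comparison used limma 3.58.1 under R 4.3.3 (lmFit and eBayes, no trend, two-sided, Benjamini-Hochberg over all 19775 genes or 54613 probe sets), without a block. The script was tested on simulated data. The clone pairs the arrays. Across genes, the departures of a clone's 2 arrays from their group means had correlations of 0.04 (CL4), 0.05 (CL9) and 0.03 (CL46). The members and lists were chosen with earlier results of these data known. Named were ERG, all members and their probe sets, up to 4 genes of the smallest p per list, and the 3 genes closest to ABL1 and to BCR. Alternatives were the clone as a block, array centring, quantile normalization, no moderation, other thresholds, a floor of 0.1, a filter on the median, other gene summaries and each clone left out. Value columns of no mapped sample numbered 0.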

Additional observations from a re-analysis of the deposited data

How the results depend on the processing

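Across the alternatives, 104 of 117 values of the member genes and 278 of 308 of their probe sets kept direction and call. Part of this tally was fixed in advance. The block, no moderation and the other thresholds leave each difference as it is. Leaving out probe sets of median below 1, or those with the suffix _x_at, also left every member difference unchanged. A member that was not called could not lose a call. Signal over background is unknown, and 3 arrays against 3 limit what can be called. The count of member genes called lower, 1 as reported, was 0 with each array centred on its median, 0 without moderation of the variances, 0 at an adjusted p under 0.05 and 0 with any clone left out. The member probe sets called lower, 5 as reported, were 0 at an adjusted p under 0.05 and between 0 (without CL46) and 6 (without CL4) with a clone left out, with 3 without CL9. The count of member probe sets called higher was 1, not 0, after quantile normalization and 1 at a fold of 1.5. The median of the members, 0.25, was 0.38 after quantile normalization and 0.11 to 0.28 with a clone left out. The list genes called higher, 3 as reported, were 1 with the clone as a replicate block, 5 after quantile normalization, 1 without moderation, 6 at a fold of 1.5, 0 at an adjusted p under 0.05 and 1 (without CL4) to 5 (without CL9) with a clone left out. Those called lower, 6 as reported, were 0 at an adjusted p under 0.05, where 0 of all genes passed in limma and 2544 had an unadjusted p under 0.05, and were 9 at a fold of 1.5. The median of all genes, -0.03 as reported, was 0.076 with centring and 0.11 with quantile normalization, and 4 of all genes passed an adjusted p of 0.05 after quantile normalization and 2 with ratios floored at 0.1. The block, in which SOS1 stayed called, changed the call of no member gene or member probe set, and it removed those of LCK, UBASH3B and PRDM12 among the list genes, whose differences it leaves as they are.

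Signs turned only in differences that were not called, and the cause was not tested. With arrays centred on their medians and after quantile normalization, GAB2 and its probe set 203853_s_at gave 0.075 and 0.10, PTPN11 0.00048 and 0.071, and probe set 201469_s_at of SHC1 0.090 and 0.12. CROCCP2 gave -0.016 with the median over probe sets. That summary also gave -0.93 for PTPN11, 0.32 for GRB2, 0.42 for CBL, -0.44 for FYN, 0.37 for HIC2 and 0.22 for DOCK1. Quantile normalization gave 0.38 for CRKL, -0.16 for PTK2 and -0.26 for TOP3B, and leaving out probe sets of median below 1 gave 0.71 for DOCK1. With a clone left out, GAB2 and 203853_s_at ran from -0.12 to 0.10, PTPN11 from -0.37 to 0.35, CBL from -0.14 to 0.79, and 201469_s_at of SHC1 from -0.23 to 0.25. Likewise 217223_s_at of BCR ran from -0.20 to 1.06, 229010_at of CBL from -1.41 to 0.59, 206184_at of CRKL from -0.015 to 0.45, 228572_at of GRB2 from -0.50 to 0.045, 1552637_at of PTPN11 from -0.66 to 1.86, 205867_at of PTPN11 from -0.97 to 1.87, and 1557354_at of SOS1 from -0.21 to 0.66.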
